A study of Mus with 6 samples.

Results

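The genes described here move calcium into and out of the endoplasmic reticulum (ER) and across the plasma membrane. They are the IP3 receptors Itpr1, Itpr2 and Itpr3, the ER pumps Atp2a2 and Atp2a3, the plasma membrane pump Atp2b1, the ER calcium sensors Stim1 and Stim2, and the channel Orai1. They were taken by Ensembl ID from a fixed list with no cut on their values. The list was chosen with earlier results of these data known. All 9 were found among the 35304 IDs of the count table. RNA sequencing had been performed on 6 samples of 4T1 cells, an established line derived from a mouse mammary carcinoma. In 3 of them the cells were untreated, and in 3 they had received isopimaric acid (IPA) at 10 µg/mL for 24 h. IPA is a plant resin acid known as an opener of large-conductance potassium channels. The labels name no vehicle for the untreated cells. They also leave unsaid whether replicates were separate cultures, so the p-values rest on a spread between samples that may be technical only. Markers of 4T1 or of other cells were not analysed here, because the remaining IDs could not be paired with gene names.

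IP3 receptors are channels of the ER membrane that open when phospholipase C produces IP3, and they release calcium into the cytosol. SERCA pumps, encoded by Atp2a2 and Atp2a3, return calcium to the ER, and the plasma membrane pump encoded by Atp2b1 exports it from the cell. When the ER store empties, the sensors Stim1 and Stim2 gather beneath the plasma membrane and open Orai1, which lets calcium in from outside. This store-operated entry, through Stim1 and Orai1 above all, is known for its part in the migration of breast cancer cells. The values below are mRNA levels and carry no measure of protein or of calcium itself.

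Stim2 was the only one of the 9 mRNAs that passed the test between treated and untreated cells, and it did so when untreated replicate 2 was left out, where it fell by 37.6%. In that comparison 3.46% of all tested IDs passed. The call of Stim2 was lost under some of the models and left-out libraries given below. With all 6 libraries Stim2 was lower with IPA in 3 of 3 samples but did not pass. The groups lay apart in that direction for 10.8% of all tested IDs. Stim1, the other sensor, and Orai1 did not pass in either comparison. Itpr1 and Atp2a2 were higher in each IPA library than in each untreated library without passing the test. Such a separation held for 9.49% of all tested IDs over 6 libraries. For Itpr1 and Atp2a2 the margin of IPA replicate 1 over untreated replicate 1 was within counting error. For Itpr2, Itpr3 and Atp2b1 the groups overlapped, and Atp2a3 was close to the limit of detection.

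Library totals ran from 3410411 counts in IPA replicate 1 to 58924711 in untreated replicate 2. The latter stood apart: its correlation with the other 5 libraries in log2 CPM (counts per 1000000) was 0.779 to 0.811 across genes, against 0.922 to 0.987 among those 5. Genes are not independent replicates in such a correlation. Each result is therefore given with and without that library, a choice made with earlier results of these data known. Levels below are CPM on TMM-scaled library sizes, called normalised CPM, and a gene was called at an adjusted p under 0.05 over all tested IDs (edgeR). With all 6 libraries edgeR called 0 of 24935 tested IDs, or 0%, in either direction, while 1560 had an unadjusted p under 0.05. Over the same IDs limma-voom called 0. DESeq2, with its own filter, called 85 of the 18483 IDs to which it gave an adjusted p. Without untreated replicate 2, with 2 untreated and 3 IPA libraries, 1.26% of 25592 tested IDs were higher with IPA and 2.2% were lower, 3.46% in all.

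All 9 genes passed the filter on low counts in both comparisons. Untreated replicate 2 was the lowest of the 6 libraries for 5 of the 9 and the highest for 2, Stim2 and Atp2a3. Over all tested IDs it was lowest for 38.8% and highest for 37.8%, so these extremes were not particular to the calcium genes. Against the mean of untreated replicates 1 and 3, its normalised level was 50.1% for Atp2a2, 57.2% for Stim1, 64.6% for Atp2b1, 71.5% for Itpr1, 73.1% for Itpr3 and 91.3% for Itpr2. It was 122% for Orai1 and 155% for Stim2.

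**Figure D1:**
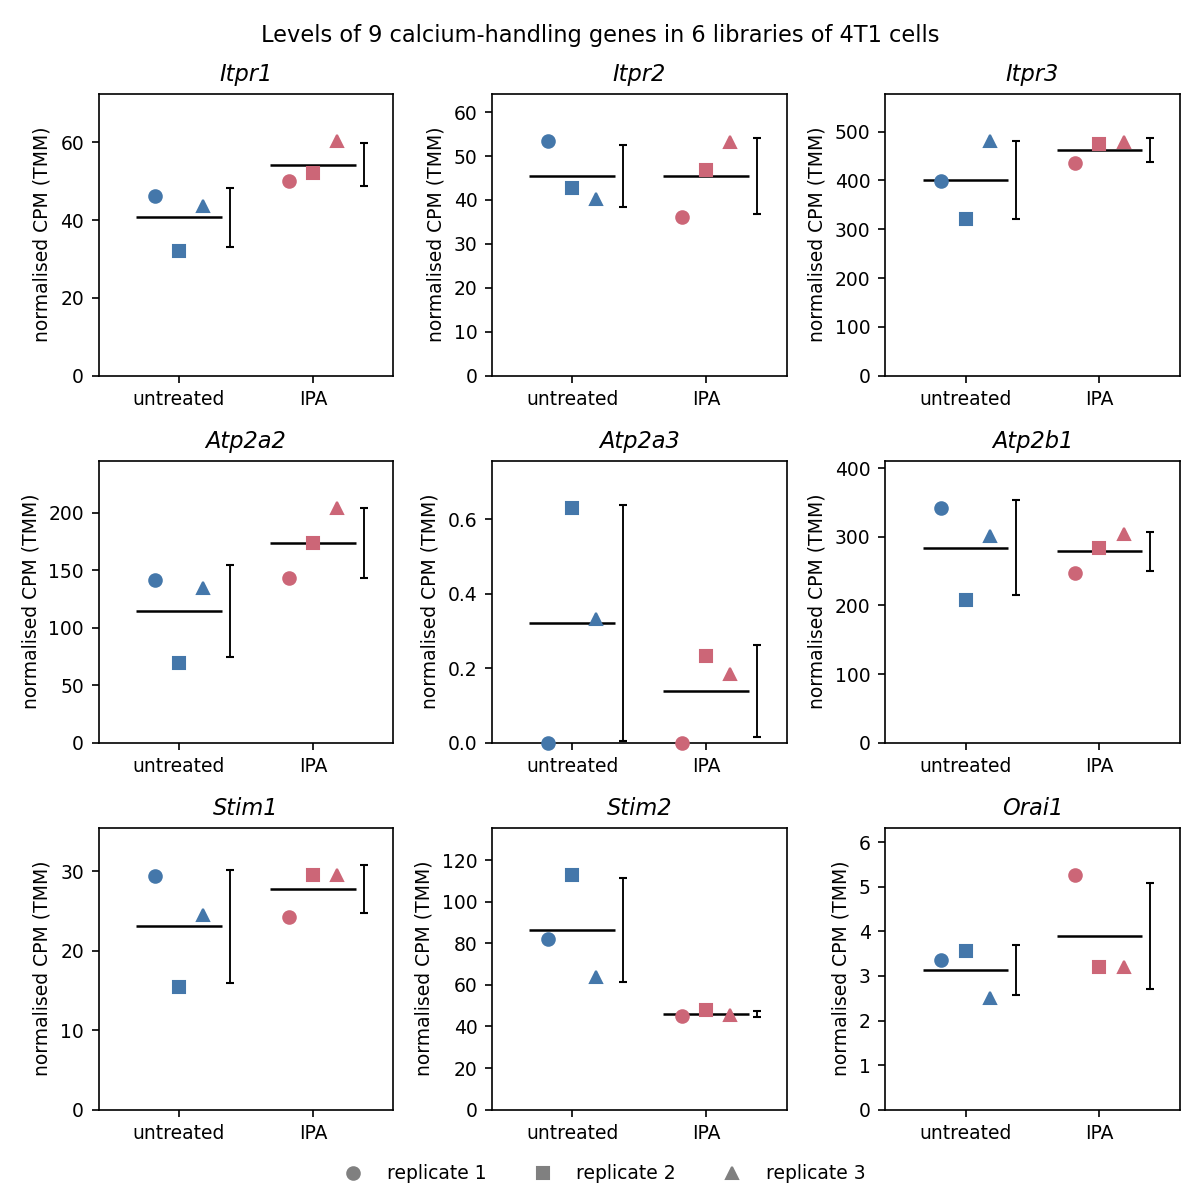
Normalised CPM (vertical axis, from 0) of each of the 9 genes in the 3 untreated (blue) and 3 IPA (red) libraries, with symbols for replicate numbers, a line at the group mean and a bar of ± 1 SD (n = 3). The IPA libraries of Stim2 lie between 45.1 and 47.8, below the lowest untreated library at 63.7, and the square of untreated replicate 2 lies at the bottom of its group for Itpr1, Itpr3, Atp2a2, Atp2b1 and Stim1.

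Stim2 (ENSMUSG00000039156; GRCm38 chromosome 5, 53998523 to 54121057) encodes the ER sensor that responds to small drops in stored calcium and helps to set the resting calcium level. Its normalised CPM was 81.9, 113 and 63.7 in untreated replicates 1, 2 and 3, and 45.1, 47.8 and 45.3 in IPA replicates 1, 2 and 3. The 3 IPA libraries lay close together and below each untreated library, while the untreated libraries were spread widely. The means were 86.2 ± 24.9 in untreated cells and 46 ± 1.48 with IPA (SD, n = 3 each). On plain library totals untreated replicate 2 stood at 85 CPM, beside 83.3 and 65.1 in untreated replicates 1 and 3, and the IPA libraries stood at 47.8 to 51.6 CPM. The TMM factor of untreated replicate 2 was 0.754, against 1.02 to 1.11 for the other libraries, and its lead over untreated replicate 1 was small on plain totals. The separation of the groups was present on both scales.

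The log2 fold change of Stim2 over all 6 libraries was -0.90 ± 0.25 (SE), with an edgeR adjusted p of 0.657. Without untreated replicate 2 the gene fell by 0.68 ± 0.14 on the log2 scale (SE; edgeR adjusted p = 0.0129; 95% interval -0.98 to -0.38). The biological coefficient of variation was 0.57 in the first comparison and 0.178 in the second. Read depth was ample for this gene: its smallest count was 171, in IPA replicate 1, and its largest 5007. Of the 564 IDs called lower without untreated replicate 2, 417 had a larger fall than Stim2. The median log2 fold change of all 564 was -0.98. The groups of Stim2 did not overlap in normalised CPM in either comparison, which held for 10.8% of all tested IDs in the same direction over 6 libraries and for 18.2% over 5.

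The call of Stim2 depended on the model and on which libraries were compared. With replicate number added as a block and untreated replicate 2 left out, Stim2 was at -0.69 and not called (edgeR adjusted p = 0.0696). In that fit IPA replicate 2 is alone in its block and adds nothing to the log2 fold change. The estimate thus rests on untreated replicates 1 and 3 against IPA replicates 1 and 3. Calls over all IDs fell too, to 338 of 25592, against 886 without the block. With untreated replicate 2 left out, the fall remained called without untreated replicate 3 (-0.86, edgeR adjusted p = 0.00407), without IPA replicate 1 (-0.64, 0.0252) and without IPA replicate 2 (-0.67, 0.0483). It lost the call without untreated replicate 1 (-0.48, edgeR adjusted p = 0.136) and without IPA replicate 3 (-0.62, 0.074). The share of all tested IDs called lower moved as well: it was 2.82%, 3.05% and 1.04% in the former 3 comparisons and 0.631% and 0.642% in the latter 2. Where a single untreated library is left, it is assumed to vary as the IPA libraries do. With all 6 libraries kept and weighted by quality in limma-voom, untreated replicate 2 received a weight of 0.0388, against 1.27 to 4.37 for the others. Stim2 passed, at -0.63 (limma-voom adjusted p = 0.0187). Such weights all but leave out untreated replicate 2, so this result is not separate from the comparison without it. That setting called 1.97% of all tested IDs higher and 3.03% lower, 5% in all.

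**Figure D2:**
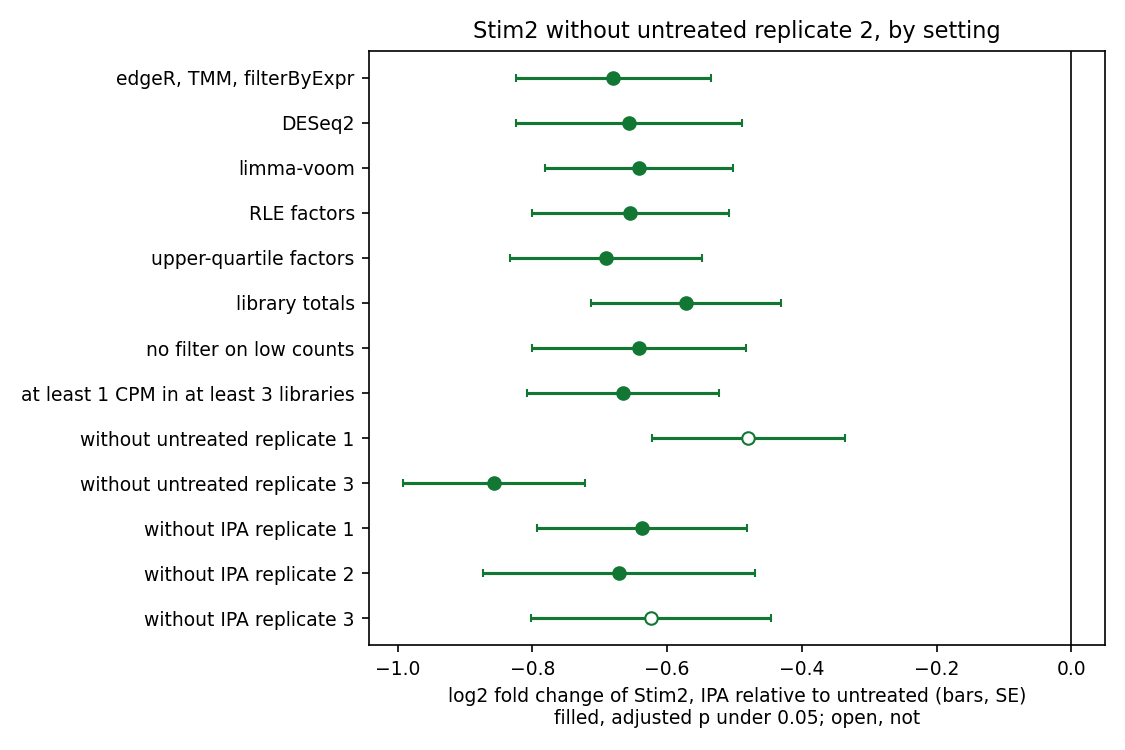
Log2 fold change of Stim2 with IPA (horizontal axis, bars ± 1 SE) without untreated replicate 2, under each tool, scaling, filter and further left-out library on the vertical axis. The setting with replicate number as a block, where Stim2 was not called, is not drawn. All points lie between -0.86 and -0.48, and the open points, without untreated replicate 1 and without IPA replicate 3, did not pass an adjusted p of 0.05.

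Stim1 (ENSMUSG00000030987; chromosome 7, 102261514 to 102437319) encodes the principal sensor that opens Orai1 after store depletion. Its normalised CPM was 29.4, 15.4 and 24.5 in untreated replicates 1, 2 and 3, and 24.3, 29.5 and 29.6 in IPA replicates 1, 2 and 3. Apart from the low untreated replicate 2, the libraries of both groups covered the same range. The log2 fold change was 0.27 ± 0.29 over all 6 libraries (SE; edgeR adjusted p = 0.764) and 0.04 ± 0.17 without untreated replicate 2 (0.946). The 95% interval of the latter ran from -0.32 to 0.40, so a change smaller than that could not be seen at this replication.

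The balance of the 2 sensors was compared directly as the ratio of Stim1 to Stim2 read counts within each library, which needs no scaling between libraries. The log2 ratio was -1.48, -2.88 and -1.38 in untreated replicates 1, 2 and 3, and -0.89, -0.69 and -0.61 in IPA replicates 1, 2 and 3. Each IPA library thus held more Stim1 relative to Stim2 than each untreated library. The ratio is made of the same counts as the levels above, so it is not a result separate from the fall of Stim2. Its lowest value came from untreated replicate 2, which was low for Stim1 and high for Stim2. How often other pairs of genes separate the groups was not tested. The mean was -1.91 ± 0.84 in untreated cells and -0.73 ± 0.14 with IPA (SD, n = 3 each), a difference of 1.18, or 2.26-fold. The exact two-sided permutation p was 0.1, the smallest that 3 samples against 3 can give, and 0.4 after Benjamini-Hochberg adjustment over the 4 ratios examined. Without untreated replicate 2 the difference was 0.70, again with no overlap, and the exact two-sided permutation p was 0.1, the smallest for that design.

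**Figure D3:**
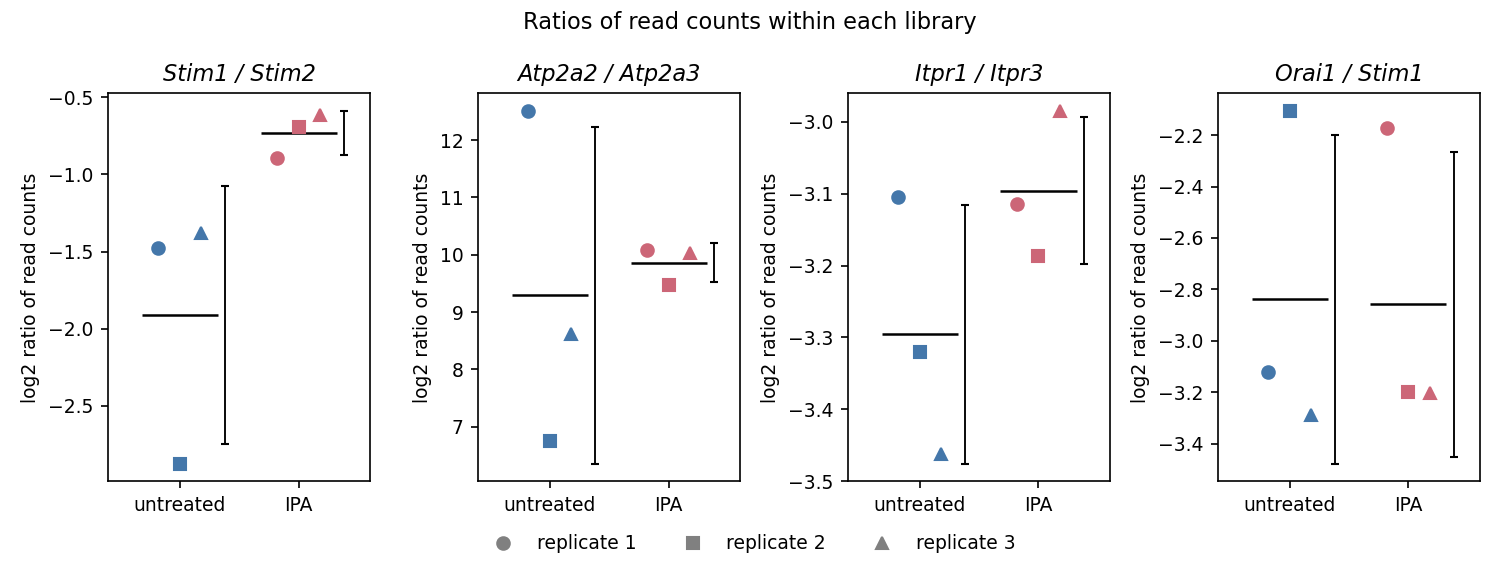
Log2 ratio of read counts of 2 genes within each library (vertical axis, not starting at 0), for untreated (blue) and IPA (red) libraries, with a line at the mean and a bar of ± 1 SD (n = 3). The groups are apart for Stim1 to Stim2, where the IPA libraries lie at -0.89 to -0.61 and the untreated at -2.88 to -1.38, and overlap for the other 3 ratios; for Atp2a2 to Atp2a3 the points of both replicates 1 rest on 0 counts of Atp2a3.

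Orai1 (ENSMUSG00000049686; chromosome 5, 123015074 to 123030452) encodes the pore of the store-operated channel. It had 69, 158 and 135 counts in untreated replicates 1, 2 and 3, and 20, 151 and 139 in IPA replicates 1, 2 and 3. In normalised CPM these were 3.35, 3.57 and 2.50 against 5.27, 3.20 and 3.21. The highest value came from the shallowest library, where 20 counts have an exact 95% Poisson interval of 3.22 to 8.15 normalised CPM, for counting error only. The log2 fold change was 0.29 ± 0.44 over all 6 libraries (SE; edgeR adjusted p = 0.829) and 0.29 ± 0.34 without untreated replicate 2 (0.764). Starting from all 6 libraries, it was 0.05 once IPA replicate 1 was left out. The 95% interval without untreated replicate 2, from -0.42 to 1.01, leaves a change of either sign possible. The log2 ratio of Orai1 to Stim1 counts averaged -2.84 ± 0.64 in untreated cells and -2.86 ± 0.59 with IPA (SD, n = 3 each; exact two-sided permutation p = 1, adjusted p = 1). Its sign depended on the libraries kept, with a difference of 0.35 without untreated replicate 2 and of -0.36 without IPA replicate 1.

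Itpr1 (ENSMUSG00000030102; chromosome 6, 108213083 to 108551116) encodes the IP3 receptor best known from neurons. Its normalised CPM was 46.3, 32.2 and 43.7 in untreated replicates 1, 2 and 3, and 50.1, 52.2 and 60.5 in IPA replicates 1, 2 and 3. Each IPA library was above each untreated one, by a margin of under 4 between IPA replicate 1 and untreated replicate 1. The log2 fold change was 0.42 ± 0.22 over all 6 libraries (SE; edgeR adjusted p = 0.657) and 0.26 ± 0.14 without untreated replicate 2 (0.386). Under the alternatives tried without untreated replicate 2 it stayed between 0.21 and 0.36, with adjusted p-values from 0.159 to 0.803.

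Atp2a2 (ENSMUSG00000029467; chromosome 5, 122453513 to 122502225) encodes SERCA2, the pump that refills the ER in most cell types. Its normalised CPM was 141, 69 and 134 in untreated replicates 1, 2 and 3, and 143, 174 and 205 in IPA replicates 1, 2 and 3. The groups did not overlap, but IPA replicate 1 lay level with untreated replicate 1, and untreated replicate 2 lay far below both. The exact 95% Poisson interval of IPA replicate 1, from 131 to 155 for counting error only, includes the level of untreated replicate 1. The log2 fold change was 0.60 ± 0.32 over all 6 libraries (SE; edgeR adjusted p = 0.657) and 0.32 ± 0.14 without untreated replicate 2 (0.257; 95% interval 0.02 to 0.62). Under the alternatives tried without untreated replicate 2 it stayed between 0.23 and 0.46, with adjusted p-values from 0.0677 to 0.778. The value thus moved by over 1.5 times with untreated replicate 2, while its sign did not change.

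Of the 9 genes, Itpr1 and Atp2a2 were thus the 2 whose IPA libraries lay above all untreated ones. Over 6 libraries 9.49% of all tested IDs did so, and 14% over 5. A count of 2 in 9 is too small to be read against that background.

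Itpr2 and Itpr3 encode the other IP3 receptors, and Itpr3 is the form typical of epithelial cells. Itpr2 (ENSMUSG00000030287; chromosome 6, 146108299 to 146502258) had 53.5, 42.8 and 40.2 normalised CPM in untreated replicates 1, 2 and 3, and 36.1, 46.9 and 53.2 in IPA replicates 1, 2 and 3. The 2 groups covered nearly the same range. Its log2 fold change was 0.002 ± 0.23 over all 6 libraries (SE; edgeR adjusted p = 0.998) and -0.04 ± 0.17 without untreated replicate 2 (0.946). Itpr3 (ENSMUSG00000042644; chromosome 17, 27057002 to 27122223) had 398, 322 and 482 normalised CPM in untreated replicates 1, 2 and 3, and 435, 476 and 479 in IPA replicates 1, 2 and 3. The highest library was an untreated one. Its log2 fold change was 0.21 ± 0.23 (edgeR adjusted p = 0.772) and, without untreated replicate 2, 0.05 ± 0.14 (0.908; 95% interval -0.23 to 0.34). The log2 ratio of Itpr1 to Itpr3 counts averaged -3.30 ± 0.18 in untreated cells and -3.10 ± 0.10 with IPA (SD, n = 3 each), a difference of 0.20 that was close to the spread between untreated libraries (exact two-sided permutation p = 0.3, adjusted p = 0.6). Without untreated replicate 2 the difference was 0.19 (exact two-sided permutation p = 0.5).

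Atp2b1 (ENSMUSG00000019943; chromosome 10, 98914630 to 99026143) encodes a widely expressed plasma membrane calcium pump. Its normalised CPM was 343, 208 and 302 in untreated replicates 1, 2 and 3, and 247, 284 and 304 in IPA replicates 1, 2 and 3. Untreated replicates 1 and 3 were at or above most IPA libraries and untreated replicate 2 below them all. The log2 fold change was -0.03 ± 0.25 over all 6 libraries (SE; edgeR adjusted p = 0.974) and -0.23 ± 0.14 without untreated replicate 2 (0.434; 95% interval -0.51 to 0.05).

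Atp2a3 (ENSMUSG00000020788; chromosome 11, 72961169 to 72993043) encodes SERCA3, a pump known from blood cells and some epithelia. It had 0, 28 and 18 counts in untreated replicates 1, 2 and 3, and 0, 11 and 8 in IPA replicates 1, 2 and 3. By the usual limit of 3 counts for a count of 0, a simpler bound than the exact Poisson interval used for Orai1, the level could reach 0.146 normalised CPM in untreated replicate 1 and 0.791 in IPA replicate 1, for counting error only. The second limit is above the highest level measured, 0.632 in untreated replicate 2, so IPA replicate 1 says little about this gene. Its log2 fold change was -0.90 ± 1.28 over all 6 libraries (SE; edgeR adjusted p = 0.817) and -0.09 ± 1.01 without untreated replicate 2 (0.984). No difference was detectable at these counts and this spread between libraries. The log2 ratio of Atp2a2 to Atp2a3 counts was 6.74 and 8.62 in untreated replicates 2 and 3, and 9.47 and 10.0 in IPA replicates 2 and 3. In untreated replicate 1 and IPA replicate 1, where Atp2a3 had 0 counts, the ratio is set by the pseudocount of 0.5 and by the depth. With these included, the difference between groups was -0.70 without untreated replicate 2 and 2.18 without untreated replicate 1, so no difference in this ratio is read from the data.

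**Figure D4:**
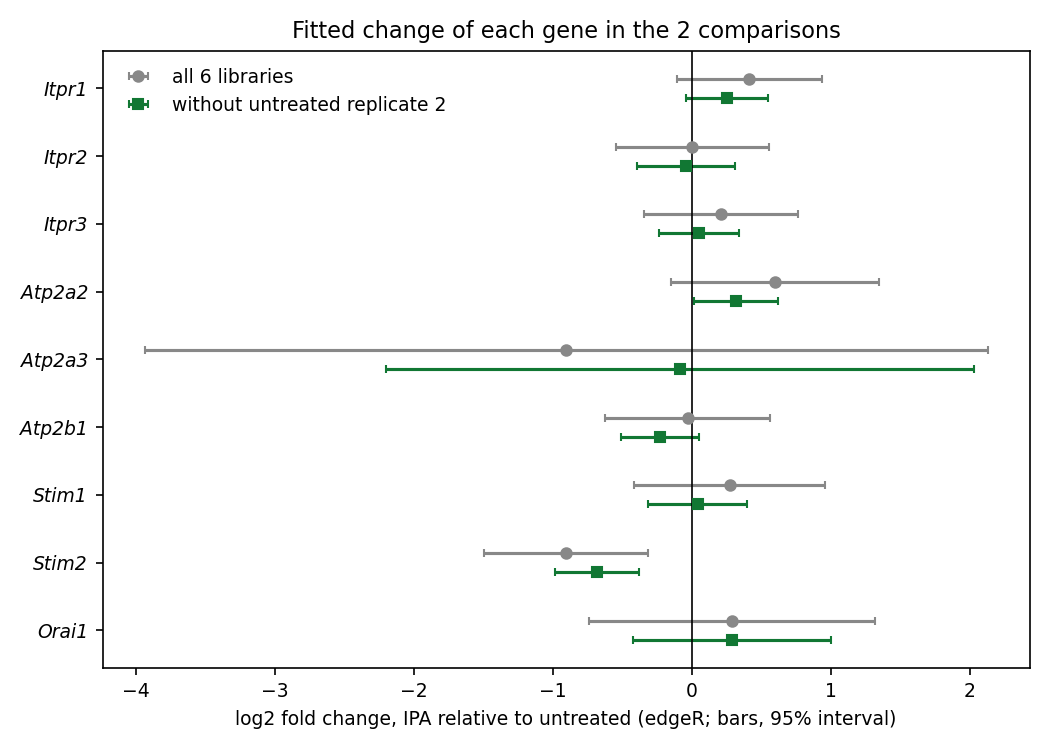
Log2 fold change of each gene with IPA relative to untreated cells (horizontal axis; bars, 95% interval, edgeR) over all 6 libraries (grey) and without untreated replicate 2 (green). The intervals of Stim2 lie below 0 in both comparisons, that of Atp2a2 lies above 0 in the second only, from 0.02 to 0.62, and the interval of Atp2a3 is the widest. Intervals are for single genes, without adjustment over all tested IDs. Stim2 over all 6 libraries (edgeR adjusted p = 0.657) and Atp2a2 in the second comparison (0.257) were not called.

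The median log2 fold change of the 9 genes was 0.21 over all 6 libraries, with 6 genes above 0, beside -0.08 and 45.5% of all tested IDs. Without untreated replicate 2 it was 0.04, with 5 genes above 0, beside -0.04 and 45.8% of all tested IDs. In the first comparison 0 of the 9 were called and 1, Stim2, had an unadjusted p under 0.05, against 6.26% of all IDs. In the second 1 of the 9 was called, against 3.46% of all IDs, and 2, Stim2 and Atp2a2, had an unadjusted p under 0.05, against 16.8% of all IDs.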

How the data were processed

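The deposited table holds whole-number read counts per Ensembl ID, as the authors deposited them. Builds GRCm38 and mm10 appear in the submitters' processing notes, while the aligner, counter, annotation and strand setting were not given in the sources at hand. Treated columns carry a shorter abbreviation than the sample titles and were matched by letter and number. The 9 IDs and their symbols came with the selection, and the reference table (RefSeq, GRCm38.p6) gave positions by symbol for all 9. It holds 0 Ensembl IDs, so the lists of partner genes, ER calcium buffers and cell type markers were not analysed here, and exon lengths were not at hand, so levels were not compared between genes. The members, lists and comparisons were chosen with earlier results of these data known.

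Counts were tested by edgeR 4.0.16 in R 4.3.3 (quasi-likelihood, robust, TMM, filterByExpr) over the whole table, with Benjamini-Hochberg adjustment. Standard errors are the log2 fold change divided by the square root of F. Ratios used counts plus 0.5 and exact permutation tests. Alternatives were DESeq2 1.42.0, limma-voom (limma 3.58.1), other scalings and filters, the replicate block, quality weights and left-out libraries. All 9 members are named, and of other genes those most like a called member, if they had a symbol. On simulated counts, the procedure recovered 0 of 100 changes of 2-fold and 19 of 100 of 4-fold over all 6 libraries (24935 IDs, 5 false calls), and 86 and 100 of 100 without untreated replicate 2 (25592 IDs, 24 false calls). Changed IDs had a mean of at least 5 CPM, which leaves out levels as low as those of Orai1 and Atp2a3. All simulated libraries shared 1 spread per ID, whereas in the data untreated replicate 2 stood apart. The chi-square per degree of freedom between replicates was at least 6.56, so none was counted as a duplicate.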

Additional observations from a re-analysis of the deposited data

How the results depend on the processing

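Over all 6 libraries the number of the 9 genes called was 0 under 13 of 15 alternatives, and 1, Stim2, with quality weights in limma-voom and without untreated replicate 2. The quality weights all but leave out untreated replicate 2 as well. Leaving out 1 library gave 0 to 1. With untreated replicate 2 left out, leaving out a further library gave 0 to 1, and the replicate block gave 0, with Stim2 at -0.69 (edgeR adjusted p = 0.0696). In that block fit IPA replicate 2 was alone in its block and added nothing to the log2 fold change. Deviations from the group means correlated between samples of 1 number at -0.0771, 0.0183 and 0.161. Such deviations sum to 0 within a group, so those of untreated replicates 1 and 3 largely mirror untreated replicate 2. These values therefore cannot show whether the numbers pair the samples. The labels at hand state no pairing, so the main comparisons used none. Over all 6 libraries the replicate block gave 0 calls, as did the comparison without it.

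The sign changed with the setting for the following values, none of which was called. Over all 6 libraries, Atp2b1 was at 0.014 with limma-voom and 0.15 with library totals, and at -0.23 to 0.18 when 1 library was left out. Itpr2 was at -0.042 with upper-quartile factors, -0.036 with the filter at 1 CPM, -0.0031 with the replicate block and -0.12 to 0.20 with 1 library left out. Atp2a3, at -0.90 before, was at 0.96 with quality weights. Without untreated replicate 2, Itpr2 was at 0.061 with limma-voom and 0.065 with library totals, and Atp2a3 at 0.60 and 0.0070. With a further library left out, Itpr2 ran from -0.24 to 0.19, Itpr3 from -0.068 to 0.19, Stim1 from -0.092 to 0.19 and Atp2a3 from -0.85 to 0.048. The ratio of Orai1 to Stim1 was 0.029 with a pseudocount of 5 and -0.36 to 0.35 with 1 library left out, and that of Atp2a2 to Atp2a3 was -0.70 to 2.18. The cause was not tested. Library totals in place of TMM moved the median of all IDs from -0.08 to 0.13 over 6 libraries. Atp2a3 and Orai1 had the lowest counts of the 9 genes, at 0 and 20 in IPA replicate 1.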

Other observations

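Among the 7 of the 9 genes with a mean of at least 5 CPM, which leaves out Orai1 and Atp2a3, Stim2 was followed most closely over the 5 libraries without untreated replicate 2 by Atp2b1 (Pearson r = 0.78 in log2 CPM, n = 5) and Itpr2 (r = 0.31). With untreated replicate 2 included the value for Atp2b1 was -0.33 (n = 6), so this likeness depended on that library. Stim2 ran opposite to Itpr1, Atp2a2 and Itpr3, at r = -0.72, -0.60 and -0.59 over 5 libraries. Over 6 libraries these values were -0.90, -0.87 and -0.86. Itpr1 and Atp2a2 followed each other closely in both sets, at r = 0.95 over 5 libraries and 0.98 over 6. These values are a description of a few libraries that share their scaling and the contrast between groups.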
